A study of Mus musculus with 6 samples.

Results

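The genes described here encode 10 mouse glutathione transferases of 6 classes: Gsta3 and Gsta4 (alpha), Gstm1 and Gstm5 (mu), Gstp1 (pi), Gsto1 (omega), Gstt1 and Gstt2 (theta), and the membrane-bound Mgst1 and Mgst3 (MAPEG). They were taken by gene symbol from the 19661 genes that had a probe set of their own on the arrays. A gene with several probe sets was to be read at the brightest over all 6 arrays, but each of the 10 had a single probe set, so that brightness decided no choice. The 10 genes were put together with their log2 differences in this same comparison known, above all the decrease of Gsta4. They count as chosen by these values, and what follows is a description of them and not independent evidence.

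The RNA came from megakaryocyte-erythroid progenitors, which give rise to red cells and platelets, of Fog1ki/ki mice, which carry a knock-in on both Fog1 alleles (3 arrays), and of Fog1+/+ mice (3 arrays), all of strain B6.129. Bone marrow was sorted for Kit, against lineage markers, Sca1 and CD34, and for low Fcγ receptor II/III, and each array is labelled a biological replicate. Age, sex, the number of animals behind an array and the change made by the knock-in are not in the labels. Zfpm1 encodes FOG1, the cofactor with which the transcription factor GATA1 works in red cell and platelet precursors, and the knock-in protein is known outside these files as one that cannot bind the NuRD chromatin complex.

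Glutathione transferases join the tripeptide glutathione to reactive, electrophilic compounds, which makes these compounds more soluble and ready for export. The cytosolic classes act on drugs, epoxides and products of lipid peroxidation, while the MAPEG proteins sit in membranes and include enzymes and a helper protein of leukotriene synthesis. Many transferase genes in the liver are targets of NRF2, the transcription factor that answers oxidative stress, and red cell precursors rely on glutathione to keep haemoglobin and iron from damaging the cell.

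All 14 markers of megakaryocyte-erythroid progenitors lay above the lower quartile of each array (quartiles of 4.81 to 4.92 on the log2 scale). So did the means of all 12 granulocyte-macrophage markers, so this brightness does not identify the cells. Cd34, which the gate excludes, was dimmer than the quartiles, the only such gene of the 6 measured on its list. On the same list Cd48 averaged 7.95 in Fog1ki/ki and 8.46 in Fog1+/+, and Fcgr3, of the receptors gated low, 5.42 and 5.30. Zfpm1 measured 7.65, 7.50 and 7.73 in Fog1ki/ki and 7.57, 7.37 and 7.80 in Fog1+/+ (log2 difference 0.05, limma adjusted p = 0.948), which does not check the genotype, since the altered allele is not described. The array numbered 3 of each genotype had low Y-linked values (Eif2s3y 3.46 and 3.21, against at least 9.29 on the other arrays) and high Xist (11.03 and 11.02). Fog1ki/ki replicate 2 had high Xist (9.13) together with high Eif2s3y (9.44). Over all genes, 152 of 19661 had a limma adjusted p under 0.05 and so passed the test, 74 higher and 78 lower in Fog1ki/ki. With each array centred on its median these counts were 43 higher and 73 lower. Of the 14 progenitor markers 0 passed, against 0.773% of all genes. At an unadjusted limma p under 0.05, 3 were higher in Fog1ki/ki, Pf4 (log2 difference 0.97), Nfe2 (0.33) and Itga2b (0.31). The 2 lower were Kit (-0.38) and Gata1 (-0.29). Among all genes, 4.99% were higher and 4.58% lower at that p. The genotypes did not overlap for 6 of the 14, against 14.8% of all genes.

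Promoters were read from RefSeq (build GRCm38.p6) as 250 bases before to 50 bases after each annotated start. Of the 10 genes, 8 had an entry, and Gsta4 and Gstt2 had none. The promoters of Gstp1 and its neighbour Gstp3 are shown because the measured differences of these genes were unlike, that of Gsta3 because it belongs to the class of Gsta4, and that of Gstk1 because this transferase was higher in Fog1ki/ki. Capitals mark matches, on either strand, to TGACNNNGC, the core of the NRF2 element, and to the GATA motifs AGATAA and TGATAA, which share GATAA but cannot match at the same place on the same strand. Each sequence runs 5′ to 3′ on the strand of its gene.
Gsta3, chr1:21240335-21240634, plus strand: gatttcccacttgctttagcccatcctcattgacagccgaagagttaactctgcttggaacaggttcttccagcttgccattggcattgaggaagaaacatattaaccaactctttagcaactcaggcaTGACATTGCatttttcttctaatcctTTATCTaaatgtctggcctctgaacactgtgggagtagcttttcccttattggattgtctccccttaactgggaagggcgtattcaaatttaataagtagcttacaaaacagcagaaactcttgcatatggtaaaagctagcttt
Gstp1, chr19:4037863-4038162, minus strand: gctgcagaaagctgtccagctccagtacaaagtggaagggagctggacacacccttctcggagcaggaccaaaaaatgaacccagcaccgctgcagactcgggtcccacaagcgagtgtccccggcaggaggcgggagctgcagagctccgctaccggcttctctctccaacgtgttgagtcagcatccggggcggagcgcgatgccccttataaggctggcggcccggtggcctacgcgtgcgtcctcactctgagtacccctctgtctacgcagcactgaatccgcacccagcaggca
Gstp3, chr19:4059398-4059697, minus strand: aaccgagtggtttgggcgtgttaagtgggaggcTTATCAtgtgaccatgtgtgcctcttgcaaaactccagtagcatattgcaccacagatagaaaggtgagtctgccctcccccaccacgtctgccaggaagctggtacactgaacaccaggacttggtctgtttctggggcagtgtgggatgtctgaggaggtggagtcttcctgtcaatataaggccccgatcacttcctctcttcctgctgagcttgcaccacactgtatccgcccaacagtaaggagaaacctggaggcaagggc
Gstk1, chr6:42245685-42245984, plus strand: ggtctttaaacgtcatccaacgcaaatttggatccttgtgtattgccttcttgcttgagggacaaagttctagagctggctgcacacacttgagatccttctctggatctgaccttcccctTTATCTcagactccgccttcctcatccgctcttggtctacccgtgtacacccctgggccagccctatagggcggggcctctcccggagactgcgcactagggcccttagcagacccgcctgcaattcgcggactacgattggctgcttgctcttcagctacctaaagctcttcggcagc

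TGACNNNGC was found in a promoter of 3 of the 8 genes (Gsta3, Gstm5 and Mgst1), against 12.4% of 32851 RefSeq promoters of the same length. AGATAA was found in 1 of the 8 (Gsta3), against 11.2% of promoters, and TGATAA in 0 of the 8, against 9.05%. The counts are of genes, matched in any promoter, and the 8 genes had 10 promoters, of which Mgst1 matched in only 1. The shares are of promoters, so a count and its share are not directly comparable. Gstk1 held AGATAA and Gstp3 held TGATAA, while Gstp1 held none of the 3 motifs as written. The Gstp1 promoter does hold TGAGTCAGC, which differs from TGACNNNGC only in the G after TGA and was not counted. The absence of a match to TGACNNNGC therefore does not show that Gstp1 lacks an NRF2 element. These are matches of letters in a short window and show no binding.

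Gsta4, the alpha-class enzyme specialised for the reactive hydroxyalkenals that lipid peroxidation releases, was lower in Fog1ki/ki. It measured 6.79, 7.16 and 6.96 on the log2 scale in the Fog1ki/ki arrays, against 8.45, 8.43 and 8.83 in the Fog1+/+ arrays. The genotypes did not overlap, and the highest Fog1ki/ki array lay well under the lowest Fog1+/+ array. The means were 6.97 ± 0.19 and 8.57 ± 0.23 (SD, n = 3 each), a log2 difference of -1.60 (95% interval -1.92 to -1.28, limma adjusted p = 0.00156), or 3.03-fold lower. Of the 19661 genes, 10 had a difference as low as this or lower, Gsta4 included. In a sorted population, fewer cells with the transcript and less transcript per cell cannot be told apart.

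The decrease of Gsta4 was measured with and without the arrays that stood apart. On the arrays numbered 3, Gsta4 was 6.96 in Fog1ki/ki and 8.83 in Fog1+/+. Without these arrays, and with 2 left per genotype, its log2 difference was -1.47 and its adjusted p 0.0455. With any 1 of the 6 arrays left out the log2 difference ran from -1.70 to -1.47, and the adjusted p from 0.00496 to 0.00945. Gsta4 was past the threshold in all 16 alternative settings run.

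Gsta4 was the 1 gene of the 10 that passed limma's test over all genes, 0 rose, and 9 did not pass. Over all genes tested, 0.773% were called, with 0.397% lower and 0.376% higher in Fog1ki/ki. The median log2 difference of the 10 genes was -0.04, against 0.02 over all genes. Before adjustment, at a p under 0.05, 2 of the 10 were lower and 0 higher, against 4.58% lower and 4.99% higher among all genes (9.57% together). The genotypes were fully separated, both times with Fog1ki/ki lower, for 2 of the 10, Gsta4 and Gsto1, against 6.53% of all genes lower and 8.31% higher (14.8% together).

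**Figure D1:**
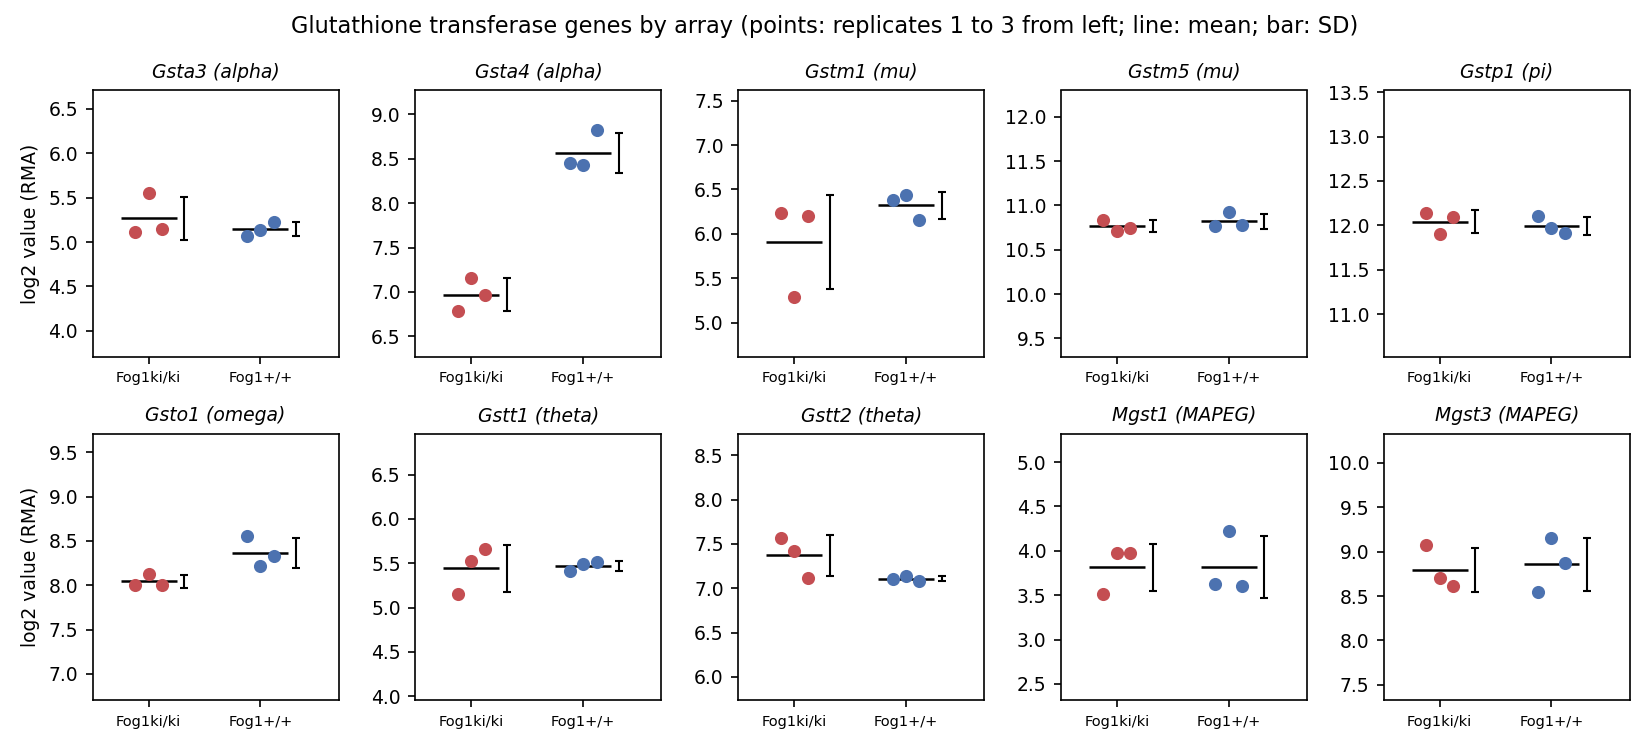
Log2 values (vertical axes, each spanning the same range of log2 units) of the 10 transferase genes in the 3 Fog1ki/ki arrays (red, left) and the 3 Fog1+/+ arrays (blue, right), with horizontal lines for means and bars for the SD. Gsta4 lies at 6.79 to 7.16 in Fog1ki/ki against 8.43 to 8.83 in Fog1+/+, and Gstm1 has 1 low array, Fog1ki/ki replicate 2 at 5.29.

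Gsta3, the other alpha-class gene measured, encodes an enzyme known in mouse liver for inactivating the epoxide of aflatoxin. It measured 5.11, 5.55 and 5.15 in Fog1ki/ki, against 5.07, 5.14 and 5.23 in Fog1+/+. The genotypes overlapped, and Fog1ki/ki replicate 2 was the highest array. The log2 difference was 0.12 (95% interval -0.17 to 0.42, limma adjusted p = 0.834), and it was -0.017 without Fog1ki/ki replicate 2.

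Within each array the log2 value of Gsta4 minus that of Gsta3 was 1.68, 1.61 and 1.81 in Fog1ki/ki, against 3.38, 3.29 and 3.60 in Fog1+/+. The genotypes did not overlap in this within-array difference, which moved by -1.72 between them. Most of that is the Gsta4 difference of -1.60. Gsta3 lay close to the arrays' lower quartiles (4.81 to 4.92), where a fall would be hard to see. An exact two-sided permutation test gave p = 0.1, the smallest that 3 against 3 arrays allow, and 0.4 after Benjamini-Hochberg adjustment over the 4 within-class pairs compared. The alpha-class genes Gsta1 and Gsta2 had no probe set with a single gene name.

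Along the chromosome, 0 of the 20 tested genes nearest to Gsta4 (10 on each side in order of gene start) were called in limma. An unadjusted p under 0.05 was reached by 1 of them. Over all genes these shares were 0.773% and 9.57%, so counts this low are usual for 20 genes. The log2 differences of the 20 lay between -0.30 and 0.24. Fam83b, Tinag, Mlip, Omt2a, Omt2b, Ddx43 and Cd109 among them were dim, with means under the arrays' lower quartiles. The 20 genes include Gclc, the catalytic subunit of the rate-limiting enzyme of glutathione synthesis. Gclc measured 9.74, 9.67 and 9.50 in Fog1ki/ki and 9.75, 9.86 and 9.66 in Fog1+/+. The log2 difference of Gclc was -0.12 (95% interval -0.35 to 0.11, limma adjusted p = 0.784). Gsta4 lies on chromosome 9, whereas Zfpm1 lies on chromosome 8.

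The 5 named genes whose profiles over the 6 arrays lay nearest to that of Gsta4, by Euclidean distance of log2 values centred on each gene's mean, were Glg1 (0.44), Mfhas1 (0.55), Sh2d4a (0.56), Tceal1 (0.58) and Cecr2 (0.61). Glg1 encodes a Golgi membrane glycoprotein and Cecr2 a bromodomain protein of chromatin remodelling. All 5 were lower in Fog1ki/ki and called, which the choice by profile largely fixes, and 3 of them lie on chromosome 8, which also carries Zfpm1. That chromosome held 4.81% of the tested genes with a known chromosome. It held 8 of the 78 genes called lower (10.3%) and 4 of the 74 called higher (5.41%), and these shares were not tested.

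The mu-class genes did not pass. Gstm1, a broad-range cytosolic transferase, measured 6.23, 5.29 and 6.20 in Fog1ki/ki, against 6.38, 6.44 and 6.15 in Fog1+/+. Fog1ki/ki replicate 2 was the low array, and the other Fog1ki/ki arrays lay within the range of Fog1+/+. The log2 difference was -0.42 (95% interval -0.94 to 0.11, limma adjusted p = 0.633), and it was -0.11 without Fog1ki/ki replicate 2.

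Gstm5, known from brain and testis, measured 10.84, 10.71 and 10.75 in Fog1ki/ki and 10.77, 10.92 and 10.78 in Fog1+/+. The genotypes overlapped, with a log2 difference of -0.06 (95% interval -0.27 to 0.15, limma adjusted p = 0.902). The within-array difference between Gstm5 and Gstm1 was 0.36 larger in Fog1ki/ki (exact permutation p = 0.3, two-sided, 0.533 adjusted), and 0.08 larger without Fog1ki/ki replicate 2.

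Gstm1 and Gstm5 lie in a run of 7 mu-class genes on chromosome 3 with no other tested gene between them. Along it, the log2 differences were -0.06 for Gstm5, -0.02 for Gstm7, 0.06 for Gstm6, 0.14 for Gstm3, 0.22 for Gstm2, -0.42 for Gstm1 and -0.29 for Gstm4. None of the 7 passed in limma, and 0 had an unadjusted p under 0.05, against 0.773% and 9.57% of all genes. Gstm2 and Gstm6 were dim, with means below the arrays' lower quartiles in both genotypes. Transcripts of these paralogues are alike, probe sequences were not used here, and how far each probe set separates them was not tested.

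The pi-class gene Gstp1 encodes an abundant cytosolic transferase that also binds and restrains stress kinases. It measured 12.14, 11.90 and 12.09 in Fog1ki/ki and 12.11, 11.97 and 11.91 in Fog1+/+. The genotypes overlapped in a narrow range. The log2 difference was 0.05 (95% interval -0.19 to 0.28, limma adjusted p = 0.937), and its sign turned with each array centred on its median (-0.0067).

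Gstp3, the next tested gene to Gstp1 on chromosome 19 and a pi-class paralogue, measured 7.05, 5.68 and 5.99 in Fog1ki/ki, against 7.22, 8.08 and 7.67 in Fog1+/+. The genotypes did not overlap, but Fog1ki/ki replicate 1 came close to the lowest Fog1+/+ array. The means were 6.24 ± 0.72 and 7.66 ± 0.43 (SD, n = 3 each), and the log2 difference of -1.42 (95% interval -2.18 to -0.66) did not pass in limma (adjusted p = 0.143). Leaving out Fog1ki/ki replicate 1 brought Gstp3 past the threshold (-1.82, adjusted p = 0.0193), as did weighting the arrays (-1.63, adjusted p = 0.0391). The other 14 alternatives did not. Gstp2, a further pi-class gene, had no probe set of a single name.

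Gsto1, an omega-class enzyme that reduces dehydroascorbate and removes glutathione from proteins rather than conjugating it to drugs, measured 8.0, 8.13 and 8.0 in Fog1ki/ki, against 8.55, 8.22 and 8.33 in Fog1+/+. Each Fog1ki/ki array lay below each Fog1+/+ array, by a narrow margin. The log2 difference was -0.32 (95% interval -0.57 to -0.08), with an unadjusted p of 0.016 that did not pass over all genes (limma adjusted p = 0.343). Its neighbour Gsto2 had a log2 difference of 0.16 (95% interval -0.15 to 0.46, limma adjusted p = 0.786).

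The theta-class genes encode transferases that act on small halogenated compounds and sulphate esters. Gstt2 measured 7.57, 7.42 and 7.12 in Fog1ki/ki, against 7.10, 7.14 and 7.08 in Fog1+/+. Fog1ki/ki replicates 1 and 2 lay above Fog1+/+ and replicate 3 lay within it. The log2 difference was 0.26 (95% interval -0.01 to 0.54, limma adjusted p = 0.554), and it was 0.16 without Fog1ki/ki replicate 1.

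Gstt1 measured 5.15, 5.52 and 5.66 in Fog1ki/ki and 5.41, 5.49 and 5.51 in Fog1+/+. The Fog1ki/ki arrays spread on either side of Fog1+/+, with a log2 difference of -0.03 (95% interval -0.33 to 0.27, limma adjusted p = 0.973). Without Fog1ki/ki replicate 1 the sign turned (0.12). The within-array difference between Gstt2 and Gstt1 was 0.29 larger in Fog1ki/ki (exact permutation p = 0.4, two-sided, 0.533 adjusted), and 0.04 larger without Fog1ki/ki replicate 1.

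Gstt1 and Gstt2 belong to a run of 4 theta-class genes on chromosome 10. The log2 differences of the other two were 0.14 for Gstt3 (limma adjusted p = 0.757) and 0.27 for Gstt4 (limma adjusted p = 0.492). Gstt4 measured 6.14, 6.10 and 5.78 in Fog1ki/ki, against 5.76, 5.67 and 5.77 in Fog1+/+. All its Fog1ki/ki arrays lay above Fog1+/+, replicate 3 by the least.

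Mgst3, a microsomal transferase and peroxidase, measured 9.08, 8.70 and 8.61 in Fog1ki/ki and 8.55, 9.15 and 8.87 in Fog1+/+. The genotypes overlapped throughout, with a log2 difference of -0.06 (95% interval -0.45 to 0.33, limma adjusted p = 0.952). Mgst1, known from liver membranes, measured 3.51, 3.97 and 3.97 in Fog1ki/ki and 3.63, 4.22 and 3.60 in Fog1+/+. Every array's Mgst1 value was among its dimmest values, under the lower quartile, and the means of the genotypes were equal at 3.82. The 95% interval of the Mgst1 difference ran from -0.43 to 0.43 (limma adjusted p = 1), so a difference within it is not excluded. Differences of probe sets this dim are compressed by RMA. The within-array difference between Mgst3 and Mgst1 moved by -0.06 (exact permutation p = 1, two-sided, 1 after adjustment).

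**Figure D2:**
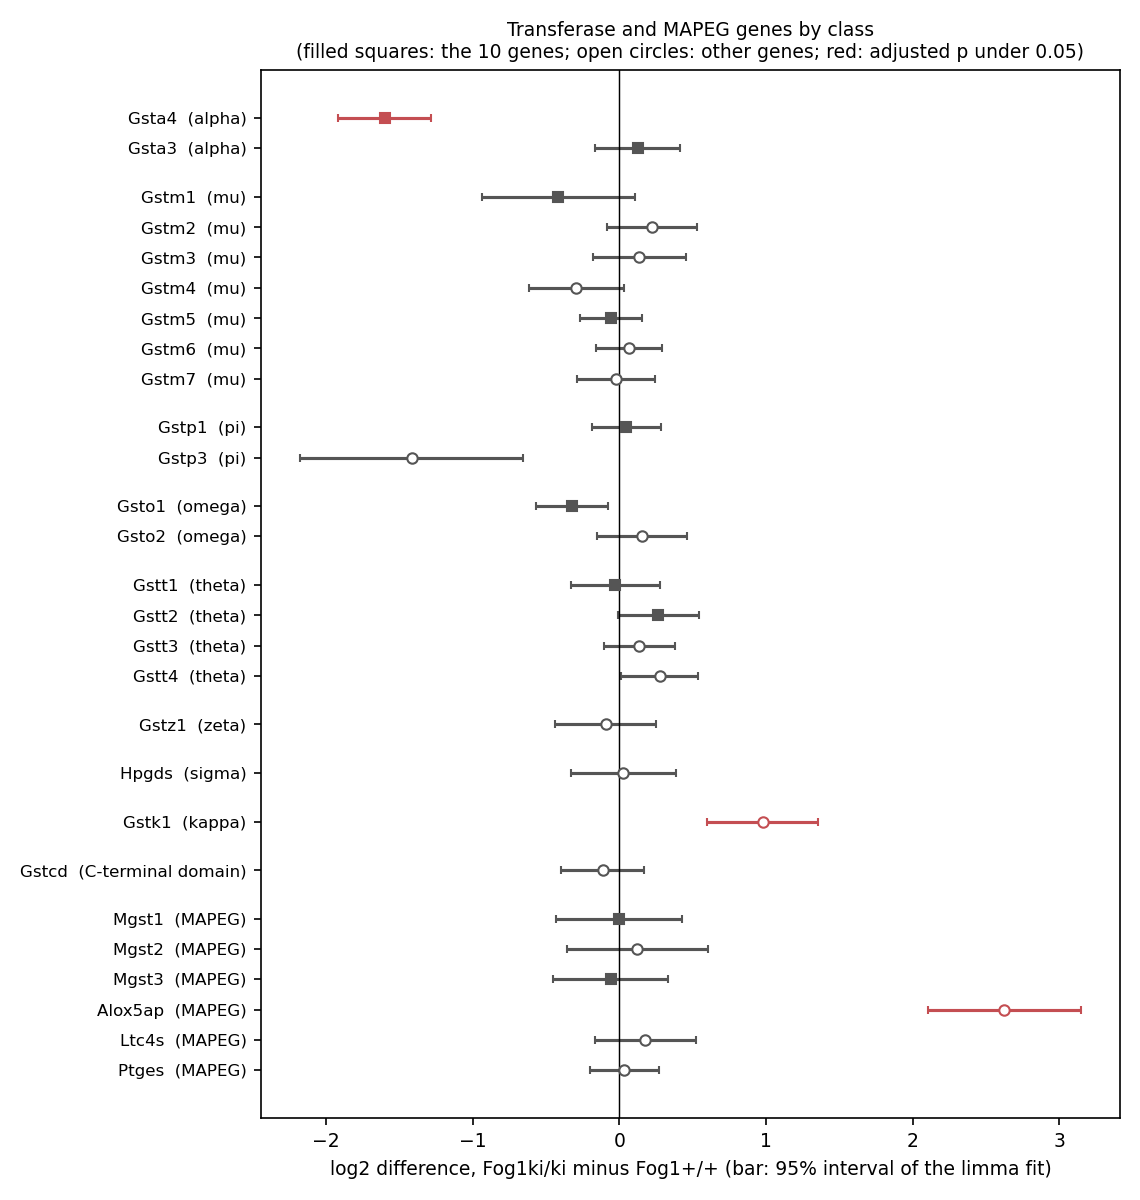
Log2 differences, Fog1ki/ki minus Fog1+/+ (horizontal axis), of the 10 transferase genes (filled squares) and of the other measured transferase and MAPEG genes (open circles), by class, with 95% intervals of the limma fit over 3 arrays per genotype. Red marks an adjusted p under 0.05, reached by Gsta4 at -1.60, Gstk1 at 0.98 and Alox5ap at 2.62, while Gstp3 lies at -1.42 with a wide interval.

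Of 13 further cytosolic and mitochondrial transferase genes measured, 1 rose, 0 fell and 12 did not pass (median log2 difference 0.06). Among all genes, 0.376% rose and 0.397% fell. The gene of the 13 that rose was Gstk1, a kappa-class enzyme of mitochondria and peroxisomes. It measured 7.28, 7.08 and 6.93 in Fog1ki/ki, against 5.94, 5.92 and 6.50 in Fog1+/+. Every Fog1ki/ki array lay above every Fog1+/+ array, and Fog1+/+ replicate 3 was the nearest. The means were 7.10 ± 0.18 and 6.12 ± 0.33 (SD, n = 3 each), a log2 difference of 0.98 (95% interval 0.60 to 1.35, limma adjusted p = 0.0384), or 1.97-fold higher.

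The Gstk1 call was lost in 11 of 16 alternatives, in which the log2 difference stayed between 0.88 and 1.06. It was lost without any 1 array other than Fog1+/+ replicate 3 (adjusted p from 0.0702 to 0.165), and was kept without that array (0.0169) and without both arrays numbered 3 (0.0420). It was also lost with repeated quantile normalization (0.0504) and with each array centred on its median (0.0814).

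Hpgds, the sigma-class transferase that makes prostaglandin D in haematopoietic cells, measured 5.94, 5.47 and 5.29 in Fog1ki/ki and 5.51, 5.63 and 5.48 in Fog1+/+ (log2 difference 0.03, limma adjusted p = 0.978). Fog1ki/ki replicate 1 was the highest array, and without it the difference was -0.16. Gstz1, an isomerase of tyrosine breakdown, had a log2 difference of -0.09 and Gstcd, which carries a transferase C-terminal domain, one of -0.11, and neither passed.

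Of the 4 other MAPEG genes, 1 rose and 3 did not pass, against 0.376% of all genes that rose. Alox5ap, which presents arachidonic acid to 5-lipoxygenase, measured 9.63, 8.67 and 8.86 in Fog1ki/ki, against 6.19, 6.62 and 6.48 in Fog1+/+ (log2 difference 2.62, limma adjusted p = 0.00156). The genotypes lay far apart, and of 16 alternatives the call was lost in 1, without both arrays numbered 3 (adjusted p = 0.0582). Ltc4s, which joins glutathione to leukotriene A, had a log2 difference of 0.18 (95% interval -0.17 to 0.52), Mgst2 one of 0.12 (-0.36 to 0.60) and Ptges, a prostaglandin E synthase, one of 0.03 (-0.20 to 0.27). These 3 genes overlapped between the genotypes and did not pass.

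**Figure D3:**
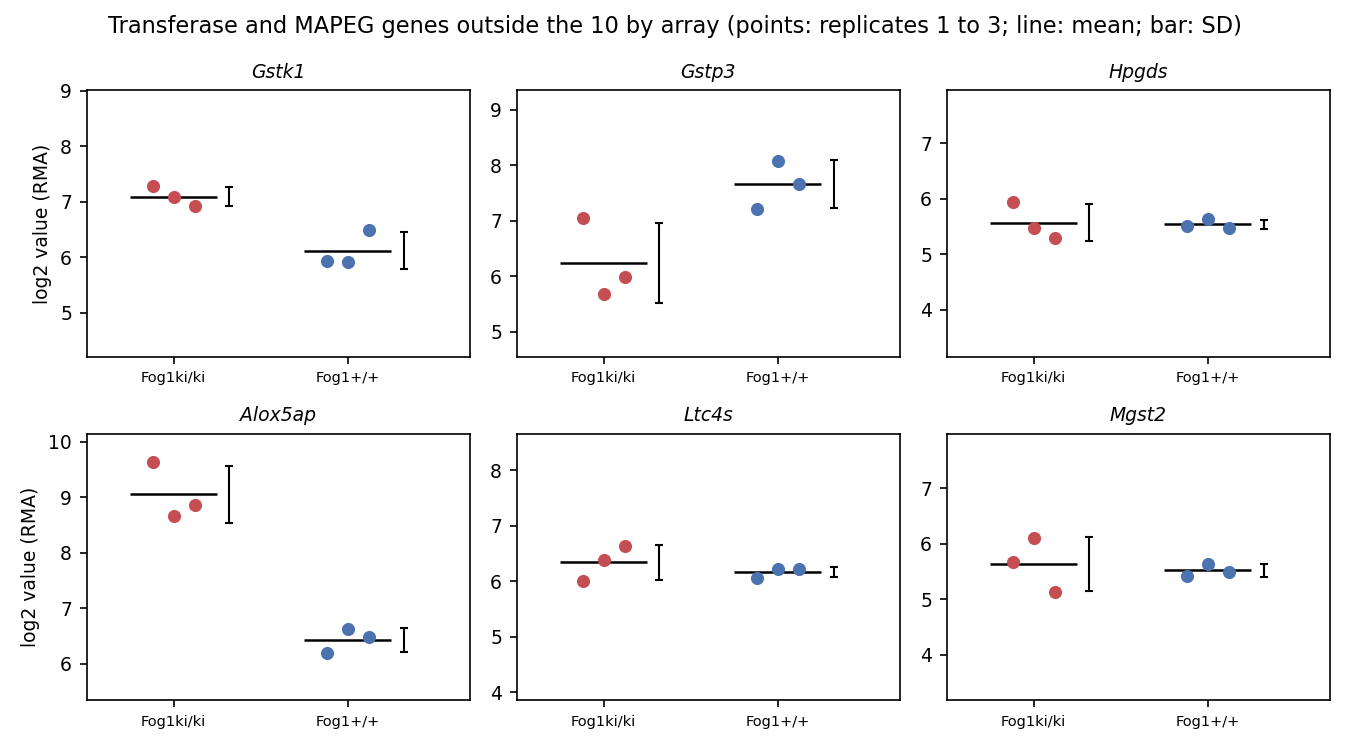
Log2 values (vertical axes) of 6 transferase and MAPEG genes outside the 10 in the 3 Fog1ki/ki arrays (red, left) and the 3 Fog1+/+ arrays (blue, right), with lines for means and bars for the SD. Gstk1 and Alox5ap are higher in each Fog1ki/ki array, Gstp3 is lower with Fog1ki/ki replicate 1 at 7.05 near the Fog1+/+ arrays, and Hpgds, Ltc4s and Mgst2 overlap.

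Some markers of mast cells moved with genotype on the same arrays. Of 12 mast cell markers, all measured, Ms4a2, Rgs13 and Cd63 rose and 9 did not pass, against 0.376% of all genes called higher. Among the 9, the log2 difference ran from 0.06 for Hdc to 1.91 for Fcer1a, with 1.27 for Gzmb and 0.53 for Cpa3. It was 0.07 for Tpsb2, 0.13 for Tpsab1, 0.14 for Mitf and 0.21 for Cma1 and Mcpt4. At an unadjusted limma p under 0.05, 6 of the 12 were higher and 0 lower, against 4.99% and 4.58% of all genes. The mean log2 value of the 12 was 6.07 to 6.59 in the Fog1ki/ki arrays and 5.28 to 5.33 in the Fog1+/+ arrays. That mean rests largely on a part of the list. The granule protease Mcpt4 was dim, with means under the lower quartiles in both genotypes. The 7 measured basophil and eosinophil markers averaged 5.25 to 5.42 in Fog1ki/ki and 4.99 to 5.03 in Fog1+/+, and 0 were called in limma. Before adjustment 3 of the 7 were higher at a p under 0.05, against 4.99% of all genes. The 12 granulocyte-macrophage markers averaged 6.36 to 6.75 in Fog1ki/ki and 6.51 to 6.76 in Fog1+/+, and 0 were called in limma. Before adjustment 0 of the 12 had a p under 0.05, against 9.57% of all genes. The part of these cells in the values of Gsta4, Gstk1 and Alox5ap was not tested.

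Genes that make, recycle and break down glutathione did not pass: of 19 measured, 0 rose and 0 fell in limma, against 0.773% of all genes called. Before adjustment 1 was higher and 2 were lower at a p under 0.05, against 4.99% and 4.58% of all genes. The median log2 difference of the 19 was 0.01. Ggt6, of the family that cleaves glutathione outside the cell, did not pass (log2 difference 0.35, limma adjusted p = 0.218). Idh1, a source of cytosolic NADPH, did not pass (log2 difference -0.43, limma adjusted p = 0.365).

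Many peroxidases, redoxins and glyoxalases use glutathione or thioredoxin to remove peroxides and aldehydes, and their list also holds catalase and the superoxide dismutases. It gave 0 higher and 0 lower of 28 measured in limma, against 0.773% of all genes called. Before adjustment 2 of the 28 were lower at a p under 0.05, against 4.58% of all genes. The median log2 difference of the list was -0.09. Txn2, the mitochondrial thioredoxin, did not pass (log2 difference -0.40, limma adjusted p = 0.194), and neither did catalase (Cat) (-0.35, limma adjusted p = 0.266).

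Of 19 NRF2 regulators and targets, 0 rose and 0 fell in limma, against 0.773% of all genes called. Before adjustment 3 of the 19 were lower at a p under 0.05, against 4.58% of all genes. The median log2 difference of the list was -0.0033. Nfe2l2, which encodes NRF2, measured 10.34, 10.16 and 10.24 in Fog1ki/ki, against 10.72, 10.65 and 10.58 in Fog1+/+. The genotypes did not overlap, and the log2 difference of -0.40 (95% interval -0.62 to -0.19) did not pass (limma adjusted p = 0.133). Nqo1, a quinone reductase and a standard NRF2 target, did not pass (log2 difference -0.24, limma adjusted p = 0.437).

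Among 21 genes for aldehyde handling, other conjugation and conjugate export, 0 rose and 0 fell in limma, against 0.773% of all genes called. Before adjustment 3 were higher and 2 lower at a p under 0.05, against 4.99% and 4.58% of all genes. The median log2 difference of the 21 was -0.01. Ephx2, which hydrolyses epoxides of fatty acids, measured 6.27, 6.25 and 6.46 in Fog1ki/ki, against 7.07, 6.78 and 6.93 in Fog1+/+. The genotypes did not overlap. The log2 difference was -0.60 (95% interval -0.85 to -0.35, limma adjusted p = 0.0520), just short of the threshold, and it passed in 4 of 16 alternatives. Aldh7a1, an aldehyde dehydrogenase, did not pass (log2 difference 0.38, limma adjusted p = 0.225).

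**Figure D4:**
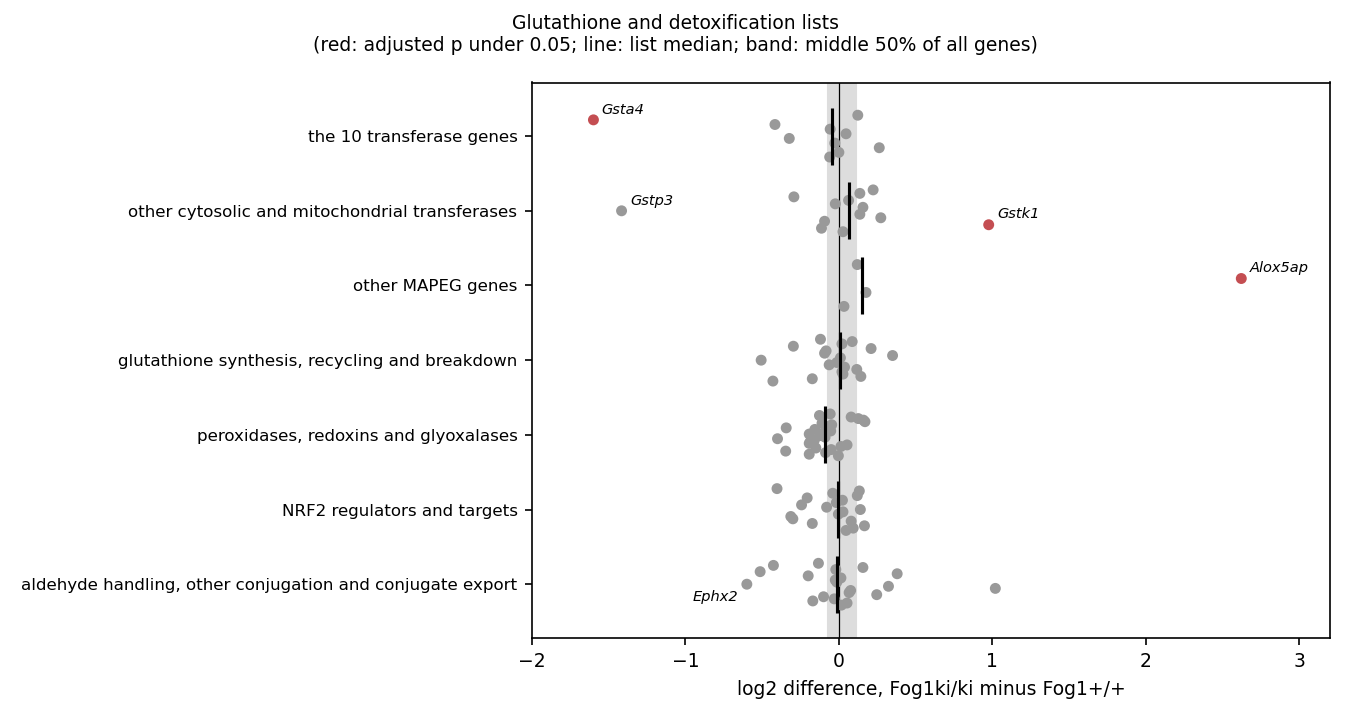
Log2 differences, Fog1ki/ki minus Fog1+/+ (horizontal axis), of every measured gene in the 10 transferase genes and in 6 lists of glutathione and detoxification genes (rows). Black lines mark list medians, red points an adjusted p under 0.05, and the grey band the middle 50% of all 19661 genes, within which most list members lie or to which they lie close.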

How the data were processed

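Sorted progenitors of 3 Fog1ki/ki and 3 Fog1+/+ samples were measured on 1-colour arrays after amplification of total RNA with the WT-Ovation Pico system, per the labels' protocols. Deposited log2 values, whose scale was read from the values, were made by the authors with RMA, per the submitters' processing notes, which name no software or settings. Where nothing says how many animals an array holds, p-values measure the spread between these arrays, and their number limits the precision.

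Of 25668 probe sets, the platform annotation gave 20777 a single gene, and 19661 genes were tested at their brightest probe set, with no filter. The genotype comparison used lmFit and eBayes (two-sided) of limma 3.58.1 under R 4.3.3 and Benjamini-Hochberg adjustment over all genes, and an adjusted p under 0.05 was called. Intervals are 95% intervals of that fit. Within-class pairs were tested by exact permutation (scipy 1.17.1), whose p cannot go below 0.1 with 3 against 3 arrays. The scripts were tested on simulated data. Promoters and gene order came from RefSeq, GRCm38.p6.

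The members and lists were chosen with earlier results of these data known. Named genes were all 10 members, every other transferase and MAPEG gene, and per list the genes called or otherwise the 2 with the smallest p. They also included called neighbours of a called member, its 5 nearest profiles (predicted genes skipped), and Zfpm1. Marker genes and Gclc were named beside a result. Tables and figures were made with Python 3.11.15, pandas 2.3.3 and matplotlib 3.10.9. Alternatives changed the scaling (quantile normalization repeated, array medians centred), the genes (dimmest quartile removed, probe sets averaged, every probe set tested), the variance model (array weights, an intensity trend), the block (replicate number), the threshold (adjusted p under 0.1) and the arrays (each left out, and both numbered 3). A term for the arrays numbered 3 was chosen after seeing the data.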

Additional observations from a re-analysis of the deposited data

How the results depend on the processing

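Of the 10 transferase genes, 1 was called, Gsta4, under each alternative run. The other 9 were called under none, and the sign turned for 5 of them in 11 of 143 comparisons, to values of at most 0.12 in size. Mgst1, at 0.00 as reported, had no sign to turn. Quantile normalization repeated turned Gstm5 to 0.021 and Mgst3 to 0.014, array medians centred turned Gstp1 to -0.0067, and array weights turned Gstt1 to 0.026. Without both arrays numbered 3, Gstp1 turned to -0.02 and Mgst3 to 0.04. Leaving out each array in turn gave -0.017 to 0.203 for Gsta3, -0.0017 to 0.118 for Gstp1, -0.135 to 0.12 for Gstt1 and -0.213 to 0.0867 for Mgst3. The lowest Gsta3 value came without Fog1ki/ki replicate 2, the lowest Gstp1 and the highest Gstt1 value without Fog1ki/ki replicate 1, and the highest Mgst3 value without Fog1+/+ replicate 2. Mgst1 gave no value with the dimmest genes left out. Among the relatives, quantile normalization repeated turned Hpgds to -0.022 and Ptges to -0.0094, array medians centred turned Hpgds to -0.027 and Ptges to -0.02, and array weights turned Hpgds to -0.043. With each array left out in turn the values ran from -0.102 to 0.0683 for Gstm7, -0.0033 to 0.122 for Gstm6, -0.235 to 0.04 for Gstz1, -0.16 to 0.165 for Hpgds, -0.117 to 0.373 for Mgst2 and -0.04 to 0.095 for Ptges. The cause of these shifts was not tested.

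Of the 2 list genes called, Gstk1 and Alox5ap, 1 was left with all probe sets tested and with the replicate block. Without both arrays numbered 3, and with a term for them, 1 was also left. With each array left out in turn, 1 to 2 list genes were called, not always the same. Without Fog1ki/ki replicate 1 the 2 were Alox5ap and Gstp3, and without Fog1+/+ replicate 3 Gstk1 and Alox5ap. With quantile normalization repeated, and with array medians centred, the 2 called were Alox5ap and Ephx2. Over all genes, 60 to 134 were called with each array left out in turn, against 152. The counts were 60, 83 and 60 without Fog1+/+ replicates 1, 2 and 3, and 82 without Fog1ki/ki replicate 2. Without both arrays numbered 3 the count was 24, from 2 arrays per genotype. Same-numbered arrays correlated in their deviations from the group means at 0.0683, -0.0076 and 0.128, so the numbers were not taken to pair the samples. The replicate block called 133 genes, kept Gsta4 (adjusted p = 0.00263) and lost Gstk1 (adjusted p = 0.0674). Dim signal limits what can be said of Mgst1.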

Other observations

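Some enzymes of the detoxification lists that the comparisons above do not name are given for the size of their difference, a choice made once the values were known. Nat1, an arylamine N-acetyltransferase, measured 6.31, 5.76 and 6.0 in Fog1ki/ki, against 5.03, 4.29 and 5.69 in Fog1+/+, a log2 difference of 1.02 that did not pass (limma adjusted p = 0.269). Aldh3a2, a fatty aldehyde dehydrogenase, measured 7.28, 6.85 and 6.64 in Fog1ki/ki, against 7.21, 7.84 and 7.26 in Fog1+/+, a log2 difference of -0.51 that did not pass (limma adjusted p = 0.452). Nat1 did not overlap between the genotypes, and Aldh3a2 did. Fog1+/+ replicate 2 was the lowest array for Nat1 and the highest for Aldh3a2.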
